A study of Mus musculus with 4 samples.

Results

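The cells described here are B-lineage cells from mouse bone marrow that carried a kappa light chain and transcripts of Ms4a1, the gene for the surface protein CD20. They were taken from the B220lo library by a fixed rule. The cells were selected on their contigs and on their Ms4a1 count. A barcode first had to hold 1000 UMIs or more (unique molecular identifiers, each counting 1 captured RNA molecule), with 500 genes or more detected and no more than 10% of UMIs from mitochondrial genes. It also needed an assembled heavy-chain (IGH) contig, a kappa (IGK) contig, no lambda (IGL) contig and at least 1 UMI of Ms4a1. The rule was met by 2821 of the 16329 barcodes kept in that library, a share of 17.3% (exact 95% binomial interval 16.7 to 17.9), and the whole series held 55216 kept barcodes.

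The series held 4 libraries of CD45.2+ bone marrow cells, all from mice 10 weeks after transplantation. A first gate took Kit+ cells, from control, from Mll3/4 deleted and from Mll3/4SI marrow, and another took B220lo cells from control marrow, with 1 library for each of these groups. CD45.2 is a surface antigen used to tell transplanted from host blood cells. The labels named no strain, no Cre driver, no expansion of SI and no number of pooled animals, and the B220lo gate was made in control cells only. With 1 library per group there was no replicate, so no test was made, and every interval below is a 95% interval that covers counting error only.

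The kept B220lo barcodes were divided by their contigs for comparison. Kappa cells without a Ms4a1 UMI numbered 2965, heavy-chain-only cells 1799, and lambda cells with Ms4a1 609. Median depth was 3390 UMIs per cell in the kappa cells with Ms4a1 (lowest 1005, highest 55028), 3068 in the kappa cells without it, 3213 in the heavy-chain-only cells and 2733 in the lambda cells with Ms4a1. The same rule found 23 cells in the control Kit+ library, 7 in the Mll3/4 deleted Kit+ library and 10 in the Mll3/4SI Kit+ library, too few for a comparison between genotypes. None of these had a Rag1 UMI, and Jchain stood at 13794 CPM in the Mll3/4SI Kit+ library and at 0 UMIs in the other 2. In those 3 libraries Cd74 stood at 5895, 11226 and 7835 CPM in the cells that met the rule, against 6860 CPM in the B220lo library. CPM is a gene's UMIs per 1000000 UMIs, each summed over the cells of a group. Barcode sequences were also shared between libraries: 45 of the 2821 barcodes occurred in the control Kit+ library, 53 in the Mll3/4 deleted Kit+ library and 47 in the Mll3/4SI Kit+ library. Of all 16861 barcodes of the B220lo library, 286, 345 and 249 occurred in those libraries, in the same order.

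B cells are built in the bone marrow in an ordered series of steps. A precursor first rearranges its heavy-chain gene and displays it with the surrogate light chain (Vpreb1, Vpreb2 and Igll1) as a pre-B receptor. It divides, stops dividing, and then uses the Rag1 and Rag2 recombinase to join a kappa V segment to a kappa J segment. A cell whose light chain pairs with its heavy chain becomes an immature B cell with IgM on its surface. It then acquires MHC class II, CD20, CD23, the BAFF receptor and other surface proteins as it leaves the marrow. A receptor that binds self antigen can be replaced by a further kappa joining, which uses a more upstream V and a more downstream J segment.

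Markers of the label were checked first. Ms4a1, which chose the cells, had a median of 5 UMIs per cell and a highest value of 33: 520 cells had 1 UMI, 301 had 2, 530 had 3 to 4, 753 had 5 to 8 and 717 had 9 or more. Cd74, the MHC class II invariant chain, was seen in 95.2% of the cells, and Igkc, the kappa constant region, in 71.4%. After every cell was thinned to 1000 UMIs, Cd74 was seen in 87.8% and Igkc in 33.9%. In 634 NK- and T-like barcodes of the same library, which carried at least 4 NK or T-cell markers and no contig, the thinned shares were 12.3% and 2.52%, at a median of 5118.5 UMIs before thinning. Barcodes with a contig were left out of that reference, so its immunoglobulin shares are low in part by that choice. Of all 776 NK- and T-like barcodes 101 had a kappa contig, at a median of 12 UMIs, and 111 a heavy-chain contig. Over all 776 the thinned shares were 18.8% for Cd74, 4.64% for Igkc and 3.48% for Iglc2, a lambda constant region, with 39 of the cells described here among them. Ms4a1 itself was seen in 69.7% of the thinned kappa cells with Ms4a1, a share set by the rule. It was seen in 1.26% of the 634 NK- and T-like barcodes without a contig and in 3.74% of all 776.

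Other features of the library stand beside the results. First, 31 of the cells had a contig of at least 500 UMIs, and these 31 cells held 96.4% of the group's Jchain UMIs, 94.7% of its Igha UMIs, 99.0% of its Ighg2b UMIs and 60.3% of its Igkc UMIs. Jchain, Igha and Ighg2b are genes of antibody-secreting and class-switched cells. Second, granulocyte markers were summed to 3537 CPM, but the top 1% of cells (29 cells) held 95.3% of those UMIs. In addition, 39 of the cells carried at least 4 of the 10 NK and T-cell markers. Last, 259 of the cells had a doublet score above 0.25 (949 of 16329 barcodes of the library did), and they were kept. Values without such cells are given for some of the results that moved, and a value given alone may also have moved.

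The kappa light chains come first, because the rule asked for a contig but not for any segment within it. The 5 germline J segments of the mouse kappa locus are shown because their order along chromosome 6 is the order in which repeated joining can use them. The sequences are those of GENCODE M21 on GRCm38, read 5′ to 3′ on the plus strand, and capitals mark the letters TTCGGNNNNGGN, searched on that strand only, which encode the conserved Phe-Gly-X-Gly turn of a light chain.

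Igkj1, chr6:70722562-70722599: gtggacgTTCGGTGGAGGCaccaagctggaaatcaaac
Igkj2, chr6:70722916-70722954: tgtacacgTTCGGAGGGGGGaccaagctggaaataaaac
Igkj3, chr6:70723223-70723260: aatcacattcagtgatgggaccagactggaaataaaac
Igkj4, chr6:70723548-70723585: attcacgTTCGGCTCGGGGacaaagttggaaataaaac
Igkj5, chr6:70723886-70723923: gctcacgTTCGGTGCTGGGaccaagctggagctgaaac

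The motif was found in 4 of the 5 segments and not in Igkj3. No kappa contig of a cell with a single kappa contig used Igkj3, 0 of 2454 cells, which allows a share of up to 0.150%. The other segments were used by 26.0% of those cells for Igkj1 (24.3 to 27.8), 27.8% for Igkj2 (26.1 to 29.7), 16.2% for Igkj4 (14.8 to 17.7) and 30.0% for Igkj5 (28.1 to 31.8). The share of Igkj5, the most downstream segment, was above that of Igkj1, the most upstream one, with intervals that did not overlap, and Igkj4 was below either. The intervals of Igkj5 and Igkj1 also stayed apart without doublet scores above 0.25 and with single contigs. They overlapped in the other 3 alternatives: 27.4 to 31.2 against 25.1 to 28.7 with contigs of at least 5 UMIs, 27.9 to 31.7 against 24.7 to 28.4 with a stricter cell filter, and 26.9 to 30.9 against 25.1 to 29.1 in cells with at least 2 Ms4a1 UMIs. In the kappa cells without Ms4a1 the shares were 23.4%, 31.1%, 18.3% and 27.2% of 2633 cells. The interval of each segment's share overlapped between these groups.

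J use differed with the amount of kappa transcript recovered. Among the cells with Ms4a1, Igkj5 was used in 36.5% of the 200 cells whose kappa contig had 1 to 4 UMIs and in 38.1% of the 462 with 5 to 19. It was used in 31.0% of the 861 with 20 to 49 and in 22.8% of the 901 with 50 or more but under 500 (20.1 to 25.6). Igkj1 went the other way, from 16% (11.2 to 21.8) through 20.6% and 25.4% to 32.1% (29.0 to 35.2). Across these classes the most downstream J was thus commoner in cells with few kappa contig UMIs, and the most upstream J in cells with many. By Ms4a1 the ends differed in the same direction: Igkj5 was used by 34.5% of cells with 1 Ms4a1 UMI (30.2 to 39.0) and 25.2% of those with 9 or more (21.7 to 28.9), and Igkj1 by 21.5% and 30.7%. In the kappa cells without Ms4a1, Igkj5 stood at 27.2%, 30.5%, 24.8% and 16.8% in the 4 contig classes and Igkj1 at 18.9%, 22.8%, 28.3% and 38.9%. Contigs under 5 UMIs more often carried the CDR3 of a very large contig, with values given below, and the part of free RNA in these shares was not tested.

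**Figure D1:**
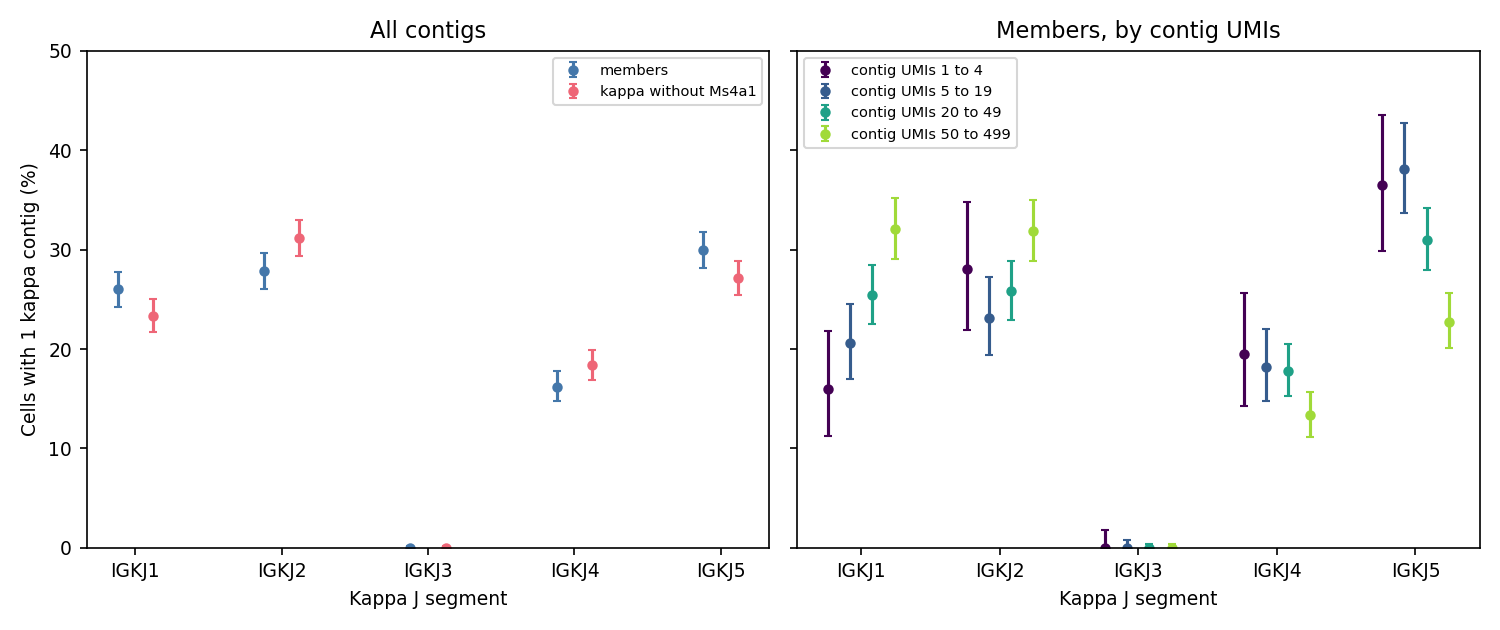
Share of cells with a single kappa contig that used each J segment, in percent with exact 95% binomial intervals. The left panel sets the cells with Ms4a1 (members, blue) beside kappa cells without Ms4a1 (red), and the right panel splits the cells with Ms4a1 by the UMIs of their kappa contig, where Igkj1 climbs from 16% to 32.1% and Igkj5 ends at 22.8%.

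The distance of the V segment along the locus was also read for each J. Among single kappa contigs of at least 5 UMIs, the V gene lay a median of 1782 kb from Igkj1 when joined to Igkj1 (606 cells, quartiles 382 and 2451 kb) and 1812 kb when joined to Igkj2 (627 cells). It lay a median of 1146 kb away when joined to Igkj4 (359 cells) or to Igkj5 (662 cells, quartiles 462 and 2466 kb). In kappa cells without Ms4a1 the medians were 1782, 2018, 1986 and 1679 kb in the same order. Quartiles overlapped widely in every case. Use was spread over 88 kappa V genes. IGKV1-135 was used by 5.18% of the cells, against 6.15% in kappa cells without Ms4a1. IGKV1-117 was used by 4.36% (3.59 to 5.24), against 2.62% there (2.04 to 3.30). IGKV17-127 was used by 3.34% (2.67 to 4.13), against 1.97% (1.48 to 2.58). IGKV2-137 was used by 3.18% (against 5.13%) and IGKV6-23 by 3.10% (against 4.48%). In 1682 kappa cells without Ms4a1 the contig had at least 5 UMIs. Among these, IGKV2-137 stood at 3.63% and IGKV6-23 at 3.27%. The shares of the cells with Ms4a1 were taken without that minimum, so the groups are not filtered alike here. IGKV1-117 stayed at 2.62% there, IGKV17-127 stood at 2.02% and IGKV1-135 at 7.37%.

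Heavy chains were diverse. Of 3095 distinct heavy-chain junctions (the CDR3 with its V and J), 33 were shared by 2 or more cells, and those held 78 cells, 2.76% of the group. The largest shared junction joined IGHV6-6 to IGHJ2, with the CDR3 tgtaccagggggggctactgg, and occurred in 7 cells that held 6 different sets of kappa chains. Among heavy J segments IGHJ2 was used by 40.1% of 2502 cells with 1 heavy contig, IGHJ3 by 23.1%, IGHJ1 by 20.2% and IGHJ4 by 16.6%. The leading heavy V genes were IGHV1-26 at 5.2%, IGHV8-8 at 3.96%, IGHV9-3 at 3.56%, IGHV1-64 at 3.36% and IGHV1-72 at 2.72%. IgM was the constant region of 94.1% of heavy contigs. IgD accounted for 45 contigs (1.43%), IgA for 58, of which 20 had at least 500 UMIs, and IgG2b for 21, of which 10 had at least 500 UMIs. A second kappa contig was listed in 367 cells (13%) and a second heavy contig in 319 (11.3%).

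Kappa chains, in contrast, recurred among cells with unrelated heavy chains. The 6 most frequent kappa CDR3 sequences are shown because they hold both chains that also fill a very large contig of some barcode and chains that do not. Capitals mark the 3′ bases that match the germline J segment shown above.

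IGKV14-100, IGKJ2: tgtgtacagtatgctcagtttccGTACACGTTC
IGKV17-121, IGKJ5: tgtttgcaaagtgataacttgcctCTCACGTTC
IGKV2-137, IGKJ4: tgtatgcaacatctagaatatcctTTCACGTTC
IGKV14-126, IGKJ5: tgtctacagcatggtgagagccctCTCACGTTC
IGKV10-96, IGKJ1: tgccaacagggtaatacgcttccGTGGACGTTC
IGKV1-110, IGKJ4: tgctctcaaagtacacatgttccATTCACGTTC

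The J named is the commonest one, which the IGKV17-121 sequence had in 26 of its 39 cells, the IGKV2-137 sequence in 23 of 36 and the other 4 in every cell. All 6 were 33 bases long, and 89.6% of the cells had a kappa CDR3 of 11 codons. The IGKV14-100 sequence occurred in 41 cells with 40 distinct heavy-chain CDR3s, at a median of 4 contig UMIs, and 2 barcodes of the library carried it at 500 UMIs or more. The IGKV14-126 sequence was alike, with 35 cells at a median of 3 UMIs and a highest contig of 8923 UMIs elsewhere in the library. The IGKV17-121 sequence occurred in 39 cells with 39 heavy chains at a median of 47 UMIs, and no barcode carried it at 500 UMIs. The IGKV10-96 sequence, in 34 cells at a median of 34.5 UMIs, also belonged to 1 barcode of 3479 UMIs.

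Chains of the barcodes with very large contigs were found more often among small contigs. There were 87 distinct kappa CDR3s in the B220lo barcodes with a contig of at least 500 UMIs. Of the other kappa contigs of cells with Ms4a1, 23.1% had one of these CDR3s. The share was 49.2% for contigs under 5 UMIs (43.5 to 54.9) and 20.1% for contigs of 20 or more (18.4 to 21.8). In kappa cells without Ms4a1 it was 38.2%, and the same size classes gave 55.1% and 19.4%. The groups differed in contig size: the kappa contig had a median of 36 UMIs with Ms4a1 and 8 without, and 9.76% against 38.3% of contigs were under 5 UMIs. The kappa call was therefore supported by fewer molecules in the cells without Ms4a1.

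The remaining sections set the transcripts of the cells against the other groups. A gene counted as higher or lower when its CPM plus 1 differed at least 2-fold, and genes needed 100 UMIs in both groups together. Against kappa cells without Ms4a1, 327 of 10719 genes compared were higher (3.05%) and 112 were lower (1.04%), with a median log2 ratio over all genes of -0.01. The rule chose the cells on Ms4a1 in this contrast, on Ms4a1 and contigs against heavy-chain-only cells and on contigs against lambda cells with Ms4a1, so the values describe the cells and support nothing further. Against heavy-chain-only cells 690 of 10407 genes were higher (6.63%) and 430 lower (4.13%). Against lambda cells with Ms4a1 148 of 9756 were higher (1.52%) and 30 lower (0.308%). With immunoglobulin, ribosomal and mitochondrial genes left out, 45 of 9470 were higher and 20 lower in this last contrast.

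**Figure D2:**
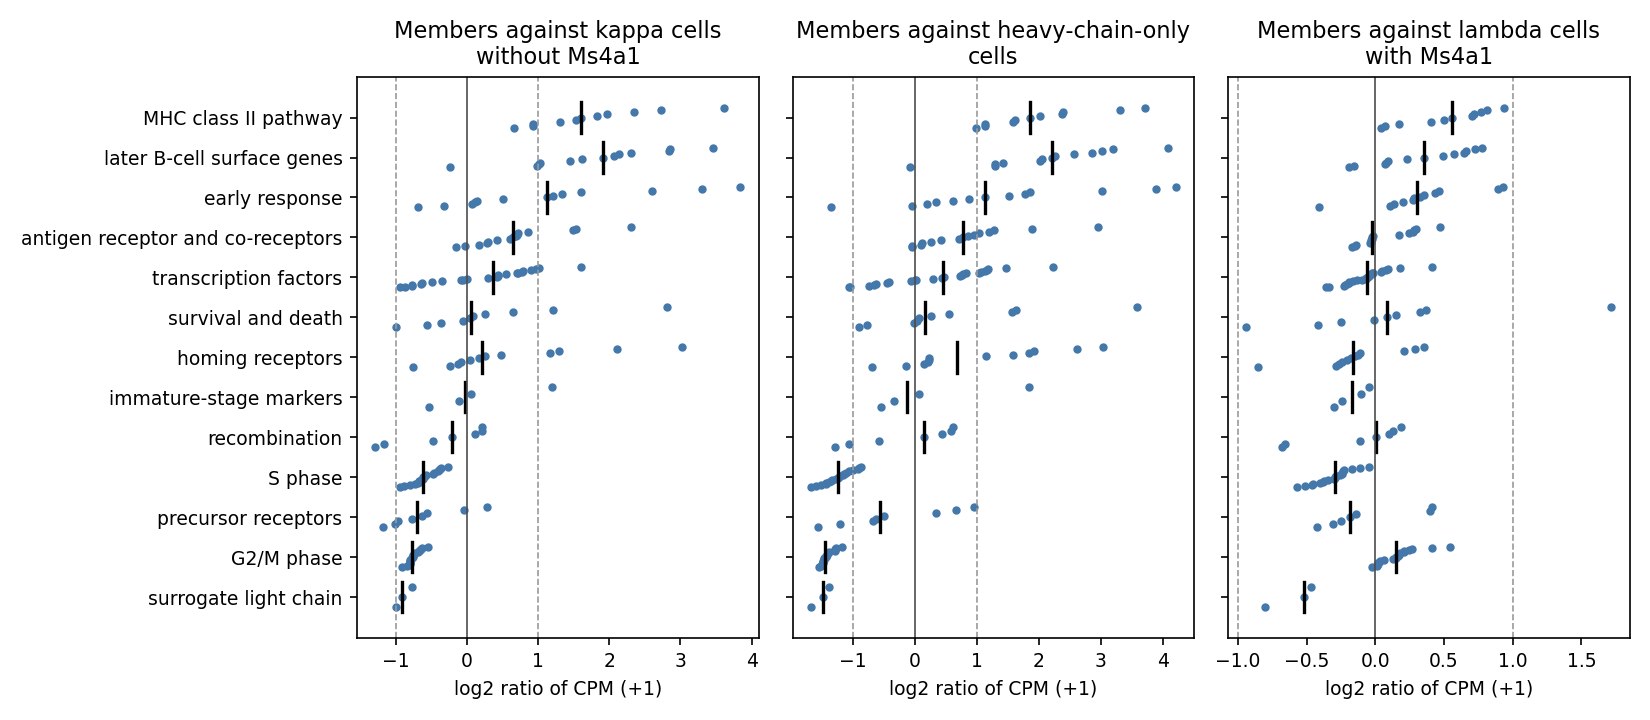
Log2 ratios (CPM plus 1) of the genes of 13 lists in the cells with Ms4a1 (members), against kappa cells without Ms4a1, heavy-chain-only cells and lambda cells with Ms4a1. Each point is a gene, the black bar is the list's median, dashed lines mark 2-fold, and the horizontal scale differs between panels; the MHC class II genes lie right of 0 in all 3 panels, and all 20 G2/M genes lie left of -1 in the middle panel only.

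Components of the antigen receptor were abundant. Cd79a and Cd79b, the signalling chains that carry the receptor, stood at 3441 CPM (3410 to 3472) and 2226 CPM in the cells with Ms4a1, against 2104 and 1377 in kappa cells without it. Ighm stood at 1147 against 833 CPM and Ighd at 93.7 (88.6 to 99.0) against 46.4. Cr2, the complement receptor CD21, stood at only 19.6 CPM, but this was 6.15-fold higher (4.51 to 8.55) than in kappa cells without Ms4a1. The inhibitory co-receptor Cd22 stood at 143 against 50.1 CPM and the phosphatase gene Ptpn6 at 553 against 191. These 3 were the list's 2-fold higher genes of 15, none was 2-fold lower, and the list's median log2 ratio was 0.64. The downstream adaptor gene Blnk stood at 461 against 516 CPM and the kinase gene Syk at 536 against 549.

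Transcripts of the lambda constant regions were present although no cell had a lambda contig. Iglc2 stood at 847 CPM (832 to 863), against 314 in kappa cells without Ms4a1, 170 in heavy-chain-only cells and 1134 in lambda cells with Ms4a1. Iglc3 stood at 479 CPM and Iglc1 at 296. In thinned cells an Iglc2 UMI was seen in 40.3% of the kappa cells with Ms4a1, 16.3% of those without and 1.26% of the NK- and T-like barcodes without a contig (3.48% of all 776). Without the 31 cells of large contigs, Iglc2 remained at 788 CPM while Igkc changed from 866 to 360 CPM. In kappa cells without Ms4a1, Igkc stood higher, at 1236 CPM, and cells with a contig of at least 500 UMIs held 85.3% of its UMIs. Iglc2 and Iglc3 are near-identical copies, so the division of reads between them is uncertain.

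The MHC class II pathway, which loads and displays peptides to T cells, was higher throughout. All 11 of its genes had higher CPM than in kappa cells without Ms4a1, 8 of them at least 2-fold, with a median log2 ratio of 1.6. Cd74 stood at 6860 CPM (6816 to 6904) against 1035 (1019 to 1052), a 6.63-fold ratio (6.52 to 6.74). The chains of the class II molecules followed: H2-Aa was at 856 against 218 CPM, H2-Ab1 at 660 against 218 and H2-Eb1 at 545 against 107. H2-DMb2, a chain of the peptide-exchange factor, had the largest ratio, 180 against 13.8 CPM, or 13-fold (11.3 to 15.1); it is closely related in sequence to H2-DMb1 (35.0 against 21.9 CPM), and reads of the pair may be divided uncertainly. Ciita, the master regulator of class II transcription, was at 33.5 against 12.9 CPM. Summed over the list, the level was 9709 CPM with Ms4a1, 1862 without, 1445 in heavy-chain-only cells and 5962 in lambda cells with Ms4a1.

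Surface genes of later B cells showed the same direction in 12 of 13 genes, and 11 were 2-fold higher, with a median log2 ratio of 1.91. Fcer2a, the low-affinity IgE receptor CD23, stood at 23.8 CPM (21.3 to 26.6) against 1.26 (0.76 to 1.97). Fcmr, an IgM Fc receptor, stood at 425 against 58.7 CPM, Tnfrsf13c, the BAFF receptor, at 388 against 87.8, and Cd40, the receptor for T-cell help, at 119 against 23.2. Ltb stood at 225 against 30.3 CPM, but at 379 in the NK- and T-like barcodes, and Cd52 at 1698 against 450 CPM, with 2073 in those barcodes. Cd38 was the exception, at 132 against 156 CPM. In thinned cells Fcmr was seen in 33.1% of the cells with Ms4a1, 8.94% of those without and 0.315% of the NK- and T-like barcodes without a contig (1.55% of all 776).

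Homing receptors were mixed: 4 of 12 compared genes were 2-fold higher, none was 2-fold lower, and the median log2 ratio was 0.21. Cxcr5, the receptor that guides B cells into follicles, stood at 30.7 CPM (27.9 to 33.8) against 2.92 (2.12 to 3.92). Cnr2 was at 39.6 against 8.36 CPM and S1pr1, the exit receptor for the blood, at 67.5 against 26.9. S1pr3 was at 7.02 against 2.59 CPM. Cxcr4, which retains cells in the marrow, was at 63.7 against 108 CPM.

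Markers of the immature stage were mixed. Ly6d stood at 2987 against 1300 CPM, whereas Cd93 (AA4.1), a marker of immature B cells, stood at 118 (112 to 124) against 171 (165 to 178). Cd24a was at 1152 against 1114 CPM and Vpreb3 at 2055 against 2227. Thus 1 of the 4 compared genes was 2-fold higher and none lower. Markers of B-1 and marginal zone cells summed to 148 against 147 CPM, and 2 of 5 compared genes were 2-fold higher: Fcrl5 at 14.1 against 0.133 CPM, the latter from 2 UMIs (106-fold, 29.0 to 884), and S1pr3.

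Genes of the preceding steps were lower in part, and none of the 3 lists had a 2-fold higher gene. Of the surrogate light chain, Igll1 stood at 189 CPM (181 to 196) against 378 (369 to 388), Vpreb1 at 134 against 255 and Vpreb2, a near-identical copy of Vpreb1, at 15.5 against 27.2; the median log2 ratio was -0.92, and Igll1 alone reached 2-fold. That count was 0 to 3 over the alternatives, with all 3 lower in cells with at least 2 Ms4a1 UMIs. These levels rest on few cells. The top 1% of cells held 45.2% of the list's UMIs with Ms4a1 and 26.0% without, and 28.5% of the cells with Ms4a1 had any. Of the recombination genes, Rag1 stood at 59.8 CPM (55.8 to 64.1) against 135 (130 to 141) and Rag2 at 26.3 (23.6 to 29.1) against 65.6 (61.6 to 69.9). The end-joining genes Xrcc4, Dclre1c and Prkdc were at 54.7, 65.3 and 42.7 against 47.1, 56.5 and 39.3 CPM, so 2 of 7 genes of that list were 2-fold lower. Il7r, the interleukin-7 receptor of precursors, stood at 165 against 374 CPM, Enpep (BP-1) at 21.9 against 45.3 and Il2ra (CD25) at 64.6 against 128. The first 2 were the 2-fold lower genes of 8 precursor receptors.

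Transcription factors differed less: 2 of 24 were 2-fold higher, none lower, and the median log2 ratio was 0.36. Pou2f2 stood at 222 CPM against 72.8 and the NF-kappaB gene Rel at 148 against 73.1. The B-lineage factors Pax5 (602 against 447 CPM) and Ebf1 (1891 against 2667) were present in both groups. Bach2 at 1770 against 3026 CPM, Myb at 184 against 354, Sox4 at 145 against 267 and Irf4 at 146 against 250 were all lower by less than 2-fold. Klf2, a factor of quiescent and recirculating lymphocytes, was at 558 against 338 CPM. Limited to cells of 2000 to 4000 UMIs, 5 factors were 2-fold higher and 5 lower.

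Early response genes, which are switched on soon after receptor signalling, included some of the largest ratios. Cd83 stood at 55.3 CPM (51.4 to 59.4) against 2.92 (2.12 to 3.92), or 18.9-fold (14.0 to 26.3). Egr1 stood at 79.7 CPM (75.1 to 84.6) against 7.17 (5.88 to 8.66). Egr3, Junb, Ier2, Dusp2 and Nr4a1 were also 2-fold higher, making 7 of 13 compared genes, with none lower and a median log2 ratio of 1.12. With a pseudocount of 10 CPM that median was 0.42, and 5 of the 13 genes were 2-fold higher. Nr4a1 was scarce, at 6.95 against 2.66 CPM. Myc (47.5 against 77.3 CPM), Jun (65.4 against 82.4) and Cd69 (66.4 against 61.4) did not share that size. Myc was 0.80 higher on the log2 scale among cells of 2000 to 4000 UMIs.

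Among survival genes Bcl2a1b stood at 15.4 against 1.33 CPM and Mcl1 at 505 against 218, whereas Bcl2l1, the gene for Bcl-xL, stood at 41.9 against 84.8. These were the list's 2 higher genes and 1 lower gene of 10 compared. Bcl2a1b has near-identical copies, so its count is uncertain, and in the NK- and T-like barcodes it stood at 24.6 CPM. The death-promoting genes Bax, Bak1 and Bbc3 were at 115, 46.4 and 5.19 CPM against 108, 39.0 and 5.44.

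Cycling transcripts were lower than in kappa cells without Ms4a1 in all 20 S-phase genes and all 20 G2/M genes, but none by 2-fold. Without doublet scores above 0.25, 9 G2/M genes and 1 S-phase gene were 2-fold lower, and by the mean of per-cell CPM 6 and 1. Mki67 stood at 333 CPM (323 to 343) against 582 (570 to 594), and Rrm2 at 108 against 209. The lists' medians were -0.62 and -0.77. Restricted to cells of 2000 to 4000 UMIs the S-phase median was 0.07, over the 14 genes compared there. The G2/M median there was -0.70.

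**Figure D3:**
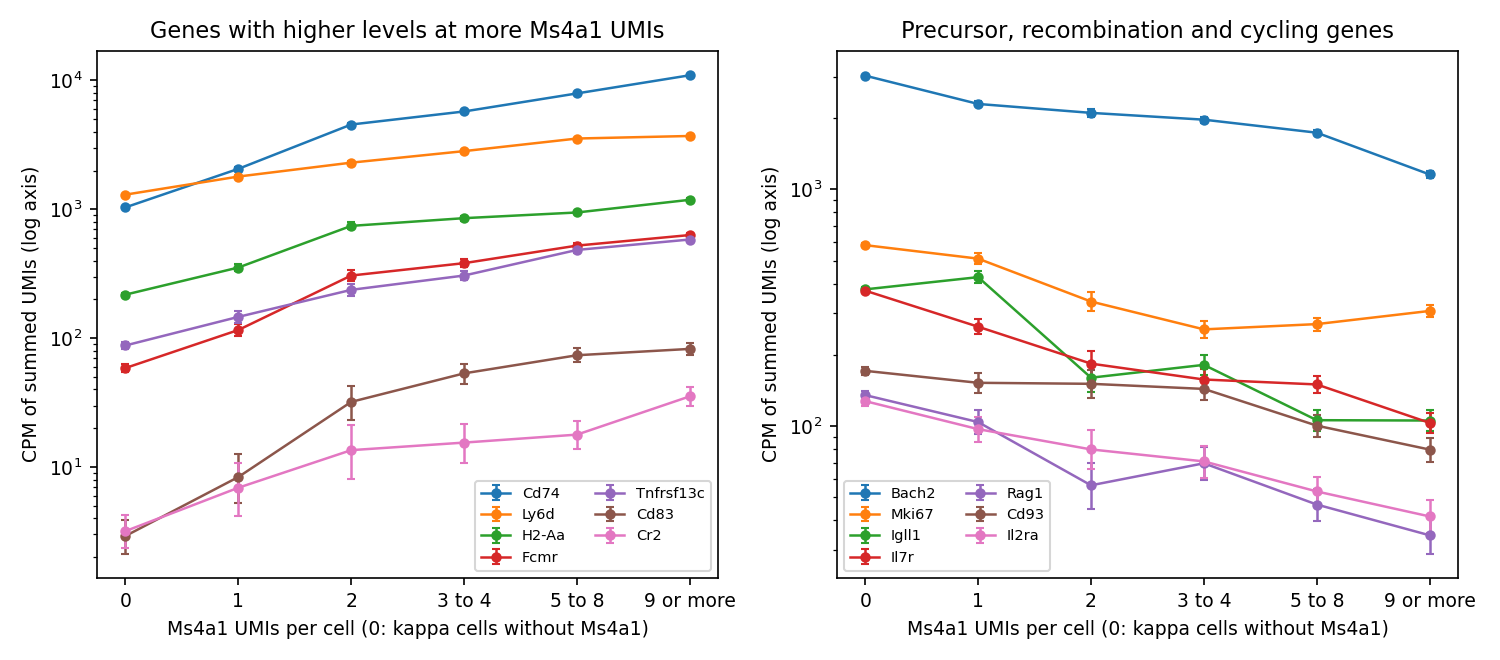
Level of selected genes (CPM of summed UMIs, log axis) in kappa cells by their Ms4a1 UMIs, where 0 is the group without Ms4a1 and the other 5 classes are the cells described here; bars are exact 95% Poisson intervals. Cd74 climbs from 1035 to 10968 CPM and Il7r descends from 374 to 103 CPM.

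The cells were not uniform, and the levels of some genes differed between classes of Ms4a1 UMIs. Ms4a1 is the gene of the rule, and levels are pooled over each class. Whether a class held like cells or a mixture was not tested. At the edge of the rule, cells with 1 Ms4a1 UMI had 2060 CPM of Cd74, and cells with none had 1035, at median depths of 2979 and 3068 UMIs. Cd74 then stood at 4548 CPM in cells with 2 UMIs, 5742 with 3 to 4, 7929 with 5 to 8 and 10968 (10862 to 11075) with 9 or more. Igll1 stood at 426 CPM with 1 Ms4a1 UMI, above the 378 CPM of cells with none, and at 160, 182, 106 and 106 in the higher classes. Rag1 stood at 104, 56.3, 69.7, 46.7 and 34.6 CPM across the 5 classes, and Cd93 at 153, 151, 144, 101 and 79.7. Rag1, Il7r and Rag2 did not share this order at that edge: with 1 Ms4a1 UMI, Rag1 was below its 135 CPM in cells with none, Il7r stood at 263 CPM (244 to 283) against 374 (364 to 384), and Rag2 at 46.6 (38.9 to 55.4) against 65.6 (61.6 to 69.9).

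Of all 10719 genes compared, 410 (3.82%) were higher and 200 (1.87%) lower in each next of the 5 classes from 1 Ms4a1 UMI to 9 or more. Among the lists, 7 of 11 MHC class II genes, 10 of 13 later surface genes, 8 of 15 antigen receptor genes, 5 of 13 early response genes and 5 of 24 transcription factors were higher in each next class. So were 2 of 10 survival genes and 1 gene each of the homing, immature-stage, precursor receptor and B-1 lists, and none of the 20 S-phase or 20 G2/M genes. The precursor receptor gene was Crlf2, which went the other way from Il7r and Il2ra of the same list. The list genes lower in each next class were Vpreb1, Rag2, Il7r, Il2ra, Cd93, Bach2, Myb, Sox4, Bmf, a death-promoting gene, and the plasma-cell genes Jchain and Prdm1. Ighd left this pattern, at 61.9, 93.3, 106, 103 and 101 CPM across the 5 classes. Egr1 stood at 36.0, 57.0, 78.8, 115 and 88.5 CPM, with its highest value in the class of 5 to 8. Median depth was higher in the top class, 3999 UMIs against 2979 with 1 Ms4a1 UMI, and the cells with large contigs were 15 of those with 1 UMI and 0 of those with 9 or more. These classes and the splits that follow were chosen after values had been seen.

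Rag1 or Rag2 UMIs were found in 594 of the cells (21.1%). Within cells of 2000 to 4000 UMIs, where the median depths were 2861 and 2921, the 216 cells with such a UMI had 5673 CPM of Cd74 (5490 to 5861) and the 1363 without had 10252 (10154 to 10352). Il7r stood at 246 against 91.4 CPM, Il2ra at 166 against 54.0, Bcl2l1 at 94.0 against 30.5 and Bach2 at 2964 against 1547. All 11 class II genes had lower CPM, none by 2-fold, and 3 of the 4 precursor receptors compared were 2-fold higher. Over all 6468 genes compared in this split 1.3% were 2-fold higher and 1.84% lower. Cd93 stood at 208 (174 to 247) against 103 (93.4 to 114). Igll1, in contrast, was at 90.8 (69.0 to 117) against 66.7 (58.9 to 75.2), and Ighm at 1419 against 1445. Of 9 early response genes compared, 2 were 2-fold lower, and 2 of 5 granulocyte markers compared were 2-fold higher. Cells with Rag transcripts thus had lower class II and higher interleukin-receptor levels with IgM transcripts at a like level. Igkj5 was used by 32.6% of 497 such cells (28.5 to 36.9) and by 29.3% of 1957 others (27.3 to 31.4).

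Cd83 or Egr1 UMIs were found in 713 of the cells (25.3%). In the same depth window, 358 cells with such a UMI had 373 CPM of Junb (338 to 411), against 99.1 (88.9 to 110) in 1221 cells without. The cells with such a UMI were deeper within that window, with a median of 3113.5 UMIs against 2844, and the part of depth was not tested. Nr4a1 stood at 25.3 against 3.40 CPM, Cd69 at 134 against 52.9 and Dusp2 at 1122 against 468. Fos, at 13.5 against 13.9 CPM, was level, and Fosb stood at 2.71 against 5.38 CPM, from 3 and 19 UMIs. Without Cd83 and Egr1, 10 of the 12 early response genes had higher CPM, and 4 of the 7 with at least 100 UMIs were 2-fold higher and none lower. Over all 6467 genes compared in this split 0.881% were 2-fold higher and 0.897% lower. Cd40 stood at 299 (268 to 333) against 144 (132 to 157), Cxcr5 at 64.9 against 29.7 and Fcer2a at 52.3 against 22.6. Rag1 stood at 27.1 CPM (18.3 to 38.6) against 68.5 (60.1 to 77.7), Il2ra at 28.0 against 82.4 and Cd93 at 62.2 against 135. Ighm, at 1472 against 1432 CPM, did not separate them.

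At least 2 UMIs of Mki67 or Top2a were found in 436 of the cells (15.5%), at a median of 8595.5 UMIs, against 3151 in cells with none of either. Within the depth window 88 such cells were set against 1167 with none, and the 324 cells with a single UMI entered neither side. There Cd74 stood at 10238 CPM (9858 to 10630) against 9563, Ighm at 1501 against 1447 and Il7r at 105 (69.8 to 152) against 117 (106 to 129). Egr1 was at 48.8 CPM (26.0 to 83.4) against 120 (108 to 132). The intervals of Ighm and Il7r overlapped between these cells and those with none, and those of Cd74 and Egr1 did not. These intervals cover the counting error of pooled UMIs only, and the spread between cells was not measured. Without Mki67 and Top2a, 19 of 20 S-phase and 15 of 18 G2/M genes had higher CPM, and 2 of the 10 S-phase genes with at least 100 UMIs were 2-fold higher. Within the window all 11 class II genes had higher CPM, none by 2-fold. The rest of the 436 cells lay outside it and are not covered by these values. Over all cells with Ms4a1, Cd74 stood at 6860 CPM, below both window values. Over all 5709 genes compared in this split 1.02% were 2-fold higher and 2.77% lower.

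Against heavy-chain-only cells, a group defined by having no light-chain contig and taken with or without Ms4a1, cycling genes differed by 2-fold as well. A missed light-chain contig also places a cell in that group, and counting only contigs of at least 5 UMIs changed it from 1799 to 3161 cells. The contrast thus differs in both light chain and Ms4a1, and their separate parts in it were not tested. All 20 G2/M genes and 16 of 20 S-phase genes were 2-fold lower, with medians of -1.46 and -1.24. In cells of 2000 to 4000 UMIs 12 of 14 G2/M genes but 1 of 14 S-phase genes were 2-fold lower, with medians of -1.29 and -0.32. Mki67 stood at 333 against 892 CPM. All 3 surrogate light chain genes were 2-fold lower, and Igll1 stood at 189 against 608 CPM. In MHC class II 10 of 11 genes were 2-fold higher, and in later surface genes 12 of 13. Markers of other cell types differed too. In this contrast 4 of 5 monocyte, 4 of 8 plasmacytoid dendritic cell, 4 of 10 granulocyte and 1 of 7 NK and T-cell genes were 2-fold higher. Of the erythroid genes, 5 of 6 were 2-fold lower. Over all genes compared the shares were 6.63% higher and 4.13% lower. The part of such cells in this contrast was not tested. In heavy-chain-only cells the top 1% of cells held 95.2% of the erythroid and 93.7% of the granulocyte UMIs. They held 77.4% of the NK and T-cell, 73.6% of the monocyte and 27.5% of the plasmacytoid dendritic cell UMIs. Class II genes summed to 1862 CPM in kappa cells without Ms4a1, 1445 CPM in heavy-chain-only cells and 9709 CPM in the cells with Ms4a1. The first and last of these are parted by the rule's own gene. In kappa cells without Ms4a1, 38.3% of kappa contigs had under 5 UMIs, so that group is not cleanly parted from heavy-chain-only cells. In the depth window the counts of 2-fold genes were 0 of 2 for the surrogate light chain, 10 of 11 for class II and 7 of 11 for later surface genes. Jchain and Igha, at 1779 and 703 CPM against 46.6 and 25.8, were at those levels with the 31 cells of large contigs and, without them, stood at 67.9 and 39.2 CPM.

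Lambda cells with Ms4a1 were much closer, and few list genes differed by 2-fold. None of the antigen receptor, class II, later surface, homing, immature-stage, recombination or cycling genes did. With contigs of at least 5 UMIs, however, 10 of 20 G2/M genes were 2-fold higher in the kappa cells. All 11 class II genes nevertheless had higher CPM in the kappa cells, with a median log2 ratio of 0.56: Cd74 stood at 6860 against 4179 CPM and H2-Eb1 at 545 against 284. Rag1 stood at 59.8 against 96.5 CPM, a ratio of 0.620 (0.537 to 0.719), and Igll1 at 189 against 262. Ly6d at 2987 against 3528 CPM, Cd79a at 3441 against 3880 and Ighm at 1147 against 1326 were slightly lower in the kappa cells. Lambda cells had fewer UMIs per cell, 2733 against 3390 in the median.

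The contrast by Ms4a1 was also made within lambda cells, a set with no cell in common with the kappa groups, though from the same library. It was split on the same gene, so the overlap below is a description and not a replication. There 153 of 7304 genes were higher with Ms4a1 (2.09%) and 86 lower (1.18%). Of 6935 genes compared in both, 138 were 2-fold higher in kappa cells and 123 in lambda cells, and 94 were shared, 68.1% of the kappa list and 76.4% of the lambda list. Of the 138 genes, 135 had the same direction in lambda cells, as did 77.8% of all 3212 genes with a positive ratio in kappa cells. Of the genes 2-fold lower, 31 in kappa and 68 in lambda cells, 4 were shared (12.9% and 5.88%), though all 31 had the same direction, as did 72.4% of all 3723 genes with a negative ratio in kappa cells. In lambda cells Cd74, H2-DMb2 and Egr1 had log2 ratios of 2.17, 2.65 and 2.53, and Rag1 and Il7r of -0.68 and -0.91. Cycling genes were less alike: 11 of 20 G2/M genes were 2-fold lower in lambda cells (median -1.01), against 0 of 20 in kappa cells. Of the erythroid genes, 3 of 4 were 2-fold higher in lambda cells and 4 of 6 in kappa cells. These erythroid levels rest on few cells. With Ms4a1, the top 1% of cells held 96.7% of the erythroid UMIs in lambda cells and 92.9% in kappa cells. Only 1 lambda cell and 5 kappa cells with Ms4a1 had 10 or more such UMIs.

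**Figure D4:**
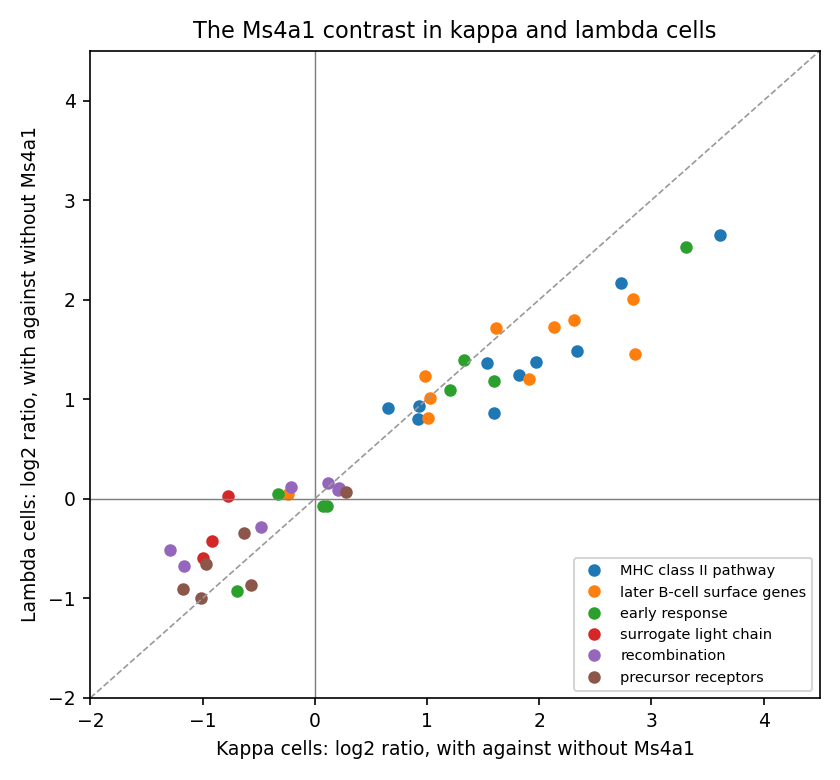
Log2 ratio (CPM plus 1) between cells with and without Ms4a1, in kappa cells on the horizontal axis and in lambda cells on the vertical axis, for genes of 6 lists compared in both. The dashed line marks equal ratios, and all 10 class II genes compared in both lie above 0 on both axes.

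The 15 genes with the highest and the 15 with the lowest log2 ratio against kappa cells without Ms4a1 were also read, of which 7 and 2 belong to the lists. Outside the lists the highest included Il4i1, an amino-acid oxidase gene, at 75.6 against 2.39 CPM, Wnt10a, a Wnt ligand gene, at 46.6 against 2.26, and Shisa8 at 24.8 against 0.332. Ifi30, a thiol reductase of antigen processing, stood at 881 CPM (865 to 897) against 95.3, and Bank1, an adaptor of B-cell receptor signalling, at 349 against 39.2. Bhlhe40, a transcription factor gene, was at 32.3 against 2.59 CPM, and Cd36, a scavenger receptor gene, at 24.8 against 1.86. Hbb-bt, Hbb-bs and Stfa1 also ranked there, but 2 cells held 92.2%, 95.9% and 100% of their UMIs. These 3 are not read as genes of the group, and the first 2 are near-identical copies.

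The lowest genes were less abundant. Slc12a3, a sodium-chloride cotransporter gene, stood at 39.8 CPM against 94.0, Lgr5, a receptor of Wnt signalling, at 18.2 against 45.6, and P2rx3, an ATP-gated channel gene, at 16.7 against 44.8. Prg3, which lies near P2rx3 on chromosome 2, stood at 9.87 against 25.5 CPM. Ifitm1 at 10.5 against 29.3, F5 at 10.9 against 28.1 and Rbm24 at 7.02 against 18.9 CPM followed. Fam13a, Grasp, Ppic, Amigo1 and Tnnt2 lay between 1.76 and 3.29 CPM, and Rag2 completed the set. Car1 and Cstdc5 ranked lowest, but Car1 turned direction without cells that carried markers of other lineages, and 2 cells held 94.5% of the Cstdc5 UMIs of the cells with Ms4a1. In heavy-chain-only cells Slc12a3, Lgr5 and P2rx3 stood at 76.9, 58.2 and 38.4 CPM.

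Plasma-cell markers were lower in sum, 2367 against 4623 CPM, with 2 of 6 genes 2-fold lower, but the top 1% of cells held 81.0% and 53.9% of those UMIs. Markers of NK and T cells summed to 141 against 123 CPM, with none of 8 compared genes 2-fold different and none of the 10 at 0. Markers of plasmacytoid dendritic cells, which also carry low B220, summed to 1419 CPM in both groups, with 0 of 8 genes past 2-fold. Granulocyte markers summed to 3537 against 2386 CPM, with 0 of 10 past 2-fold, monocyte markers to 269 against 244, with 0 of 5, and erythroid markers to 639 against 89.8, with 4 higher and 1 lower of 6. The top 1% of cells held 92.9% and 42.6% of the erythroid UMIs, and 5 of the cells with Ms4a1 had 10 or more. Without cells that carried markers of other lineages 1 of 3 erythroid genes compared was 2-fold higher and 1 lower. Whether cells of those kinds, doublets or free RNA contributed to the differences above was not tested, beyond the values given without them.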

How the data were processed

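Single-cell 5′ RNA and immune-receptor libraries of 4 sorted mouse bone marrow samples were used. The authors deposited raw UMI counts per gene and barcode and tables of assembled receptor contigs with their UMI counts, made with Cell Ranger 7.1.0 on mm10, per the file headers and the submitters' processing notes. How many animals gave each library is not given in the sources used here.

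From the deposited counts, barcodes with at least 1000 UMIs, 500 genes and at most 10% mitochondrial UMIs were kept and grouped by contigs and Ms4a1. Counts were summed per group and expressed as CPM. Ratios were taken as log2 of CPM plus 1 for genes with at least 100 UMIs over both groups, and called at 2-fold. Intervals are exact Poisson for CPM, exact conditional binomial for ratios of counts and Clopper-Pearson for shares. With 1 library per group no test was possible. For shares of cells with a transcript, each cell was thinned to 1000 UMIs. Doublets were scored with Scrublet in scanpy 1.11.5. Its own threshold marked 0 of 16329 B220lo barcodes and so did not work, and leaving out scores above 0.25 was used as an alternative. Gene positions and J segments came from GENCODE M21, which held 32158 of 32285 gene identifiers. The log2 ratio of summed counts was tested on simulated Poisson counts, which held no clustering of UMIs in single cells. Thinning was checked for the depth it returned. The J shares, CDR3 sharing, Ms4a1 classes and splits were not tested in this way.

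Named genes were those of the gene lists, the 15 highest and 15 lowest log2 ratios against kappa cells without Ms4a1 (without immunoglobulin, T-cell receptor, mitochondrial, ribosomal, unnamed and sex-linked marker genes), every J segment and the 5 most used V genes of each chain. The members and lists were chosen with earlier results of these data known. The Ms4a1 classes, the splits, the NK- and T-like reference and the lambda contrast were added after values had been seen. A result on 1 gene of the lists is not reported here.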

Additional observations from a re-analysis of the deposited data

How the results depend on the processing

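No paired analysis was possible because each group had 1 library. Of 73 named genes 2-fold different from kappa cells without Ms4a1, 68 kept their direction under all 12 alternatives and 43 stayed 2-fold different. The genes called 2-fold higher and lower in that contrast (327 and 112) numbered 161 and 58 with a pseudocount of 10 CPM. The lower genes numbered 202 in cells of 2000 to 4000 UMIs, 232 by the mean of per-cell CPM, 207 without doublet scores above 0.25 and 219 for cells with at least 2 Ms4a1 UMIs. Against heavy-chain-only cells (690 and 430), a pseudocount of 10 CPM gave 347 and 200, and cells of 2000 to 4000 UMIs gave 360 and 285. Against lambda cells with Ms4a1 (148 and 30), no filter on low counts gave 305 and 177. There the lower genes were 14 with a pseudocount of 10 CPM and 50 with contigs of at least 5 UMIs, and the higher genes were 45 without immunoglobulin, ribosomal and mitochondrial genes in the CPM. The share of kappa cells with Ms4a1 (48.8%) was 47.3% with single contigs, 50.2% with the stricter cell filter, 39.8% at 2 or more Ms4a1 UMIs, 33.9% in thinned cells and 58.3% with contigs of at least 5 UMIs. The stricter filter left 13 of the 23 control Kit+ cells. The kappa J shares moved by less than their intervals under every alternative run. Among log2 ratios of named genes, 1271 moved by more than their counting error, 10 reversed and 3759 did neither under the alternatives planned. Under those added the numbers were 307, 6 and 1367. Of the counts of 2-fold genes per list, 134 moved by over 1.5 times and 946 did not under the alternatives planned, and 39 and 321 under those added. Counts of 0 that stayed at 0 are among those that did not move, so these numbers do not measure how stable the other counts were.

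Of the 153 named genes under 2-fold against kappa cells without Ms4a1, 34 turned direction in cells of 2000 to 4000 UMIs and 0 to 13 under each other alternative. Among named genes at least 2-fold different, those that reversed in cells of 2000 to 4000 UMIs were Car1 (0.38), Tnfrsf17 (0.28), Hba-a1 (-0.32) and Hba-a2 (-0.70). Without cells of other lineage markers they were Car1 (0.19), Hba-a1 (-0.20) and Hba-a2 (-0.56). Car1 was at 0.15 without the cells of large contigs, and Stfa1 at -0.72 with single contigs. Against heavy-chain-only cells, in the same depth window, they were Myc (0.61), Chaf1b (0.04) and Jchain (-0.0707). Against lambda cells with Ms4a1 they were Jchain (-0.19) and Tnfrsf17 (-0.75) in that window, and Jchain (-0.29) and Tnfrsf17 (-0.55) without the cells of large contigs. The cause of these changes was not tested. Alternatives with contigs of at least 5 UMIs, without large contigs and without other lineage markers were chosen after seeing the data, except the contig minimum for J shares.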
